A study of Homo sapiens with 4 samples.

Results

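The 10 genes described here encode keratins of epithelial cells, namely KRT5, KRT7, KRT8, KRT15, KRT17, KRT18, KRT19, KRT23, KRT80 and KRT81. They were chosen by name, and their probes were found by the RefSeq accession that the array files give for each non-control spot. This gave 14 probes of 1 spot each, of 41000 non-control probes and 17721 genes with a symbol on the array. KRT8 had 2 probes, KRT80 had 2, KRT18 had 3 and the other genes had 1.

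RNA came from OVSAYO, a human cell line of ovarian clear cell carcinoma (CCC), and was measured on 4 arrays with 1 colour, 1 array for each condition. NS-si cells received a scramble control siRNA and Sp1-si cells a pool of siRNAs against SP1, which encodes the ubiquitous transcription factor Sp1, and per the labels both were cultured for 40 h after transfection. NS-si → CoCl2 and Sp1-si → CoCl2 cells were then exposed to 0.5 mM CoCl2, an agent that mimics hypoxia, for 4 h. The study asked which genes respond to CoCl2 through Sp1. With 1 array for each condition there is no replicate and no p-value. The error given with a log2 ratio is the SD of that ratio over the spots of a probe with 10 spots. For a probe with 1 spot it is taken from 10-spot probes of like signal. This error holds no variation between cultures.

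Keratins form the intermediate filaments of epithelial cells. Each filament is built from pairs of a type I and a type II keratin, so that type II KRT8 joins type I KRT18 in simple epithelia, with KRT7 and KRT19 beside them in glandular and ductal cells, while KRT5 marks the basal layer of stratified epithelia. The filaments are tied to neighbouring cells at desmosomes and to the matrix at hemidesmosomes, and vimentin is the filament protein that mesenchymal cells use instead.

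The arrays bore out the labelled cell type in part. All 5 epithelial markers and all 6 CCC markers were well above background on the 4 arrays, among them EPCAM at 121009, 132442, 108957 and 142784 (processed signal of NS-si, Sp1-si, NS-si → CoCl2 and Sp1-si → CoCl2 cells, the order used throughout). The same held for 30234 of the 41000 non-control probes, so this call by itself sets no marker apart. WT1 of other ovarian types, PTPRC of leukocytes, PECAM1 and CDH5 of endothelium and COL3A1 and PDGFRB of fibroblasts were above background on 0 arrays. Other genes of these lists were well above it on all 4, namely ESR1 and PGR of other ovarian types, VWF of endothelium, DCN and LUM of fibroblasts, CD3E, CD14 and CD79A of leukocytes and MSLN and UPK3B of mesothelium. Some markers moved with Sp1 silencing. NAPSA and TFPI2 of CCC were lower in Sp1-si cells, at log2 ratios of -2.33 and -1.26 without CoCl2, GPX3 of CCC was higher at 2.38, and LUM was lower at -1.08, and their part in the keratin ratios was not tested. The targeted gene followed the labels, since the 10-spot probe of SP1 read 553, 39.3, 430 and 38.8. Its log2 ratio of Sp1-si to NS-si cells was -3.77 ± 0.11 without CoCl2 and -3.87 ± 0.10 with it. In RNA from whole cultures, fewer cells of a type and less RNA per cell cannot be told apart.

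Of the 8 keratins with a measured level, KRT23 alone was past 2-fold between Sp1-si and NS-si cells, at over 5-fold higher in Sp1-si cells, and the simple epithelial keratins KRT7, KRT8, KRT18 and KRT19 were under 2-fold in every comparison, except that the dimmer probe of KRT8 passed it in the CoCl2 ratio of Sp1-si cells, and in the difference of the CoCl2 ratios, when the arrays were not scaled. KRT15, KRT18 and KRT80 were lower in Sp1-si cells, by 1.35- to 1.51-fold over their probes measured on all 4 arrays. Shifts of these sizes in either direction were common, at 25.4% to 47.1% of all measured probes. Without scaling, the log2 ratios of these keratin probes with CoCl2 shrank to between -0.20 and -0.04. None of the 8 differed by 2-fold between CoCl2-exposed and unexposed cells with the scaling used. KRT5 and KRT17 were well above background on 0 arrays.

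**Figure D1:**
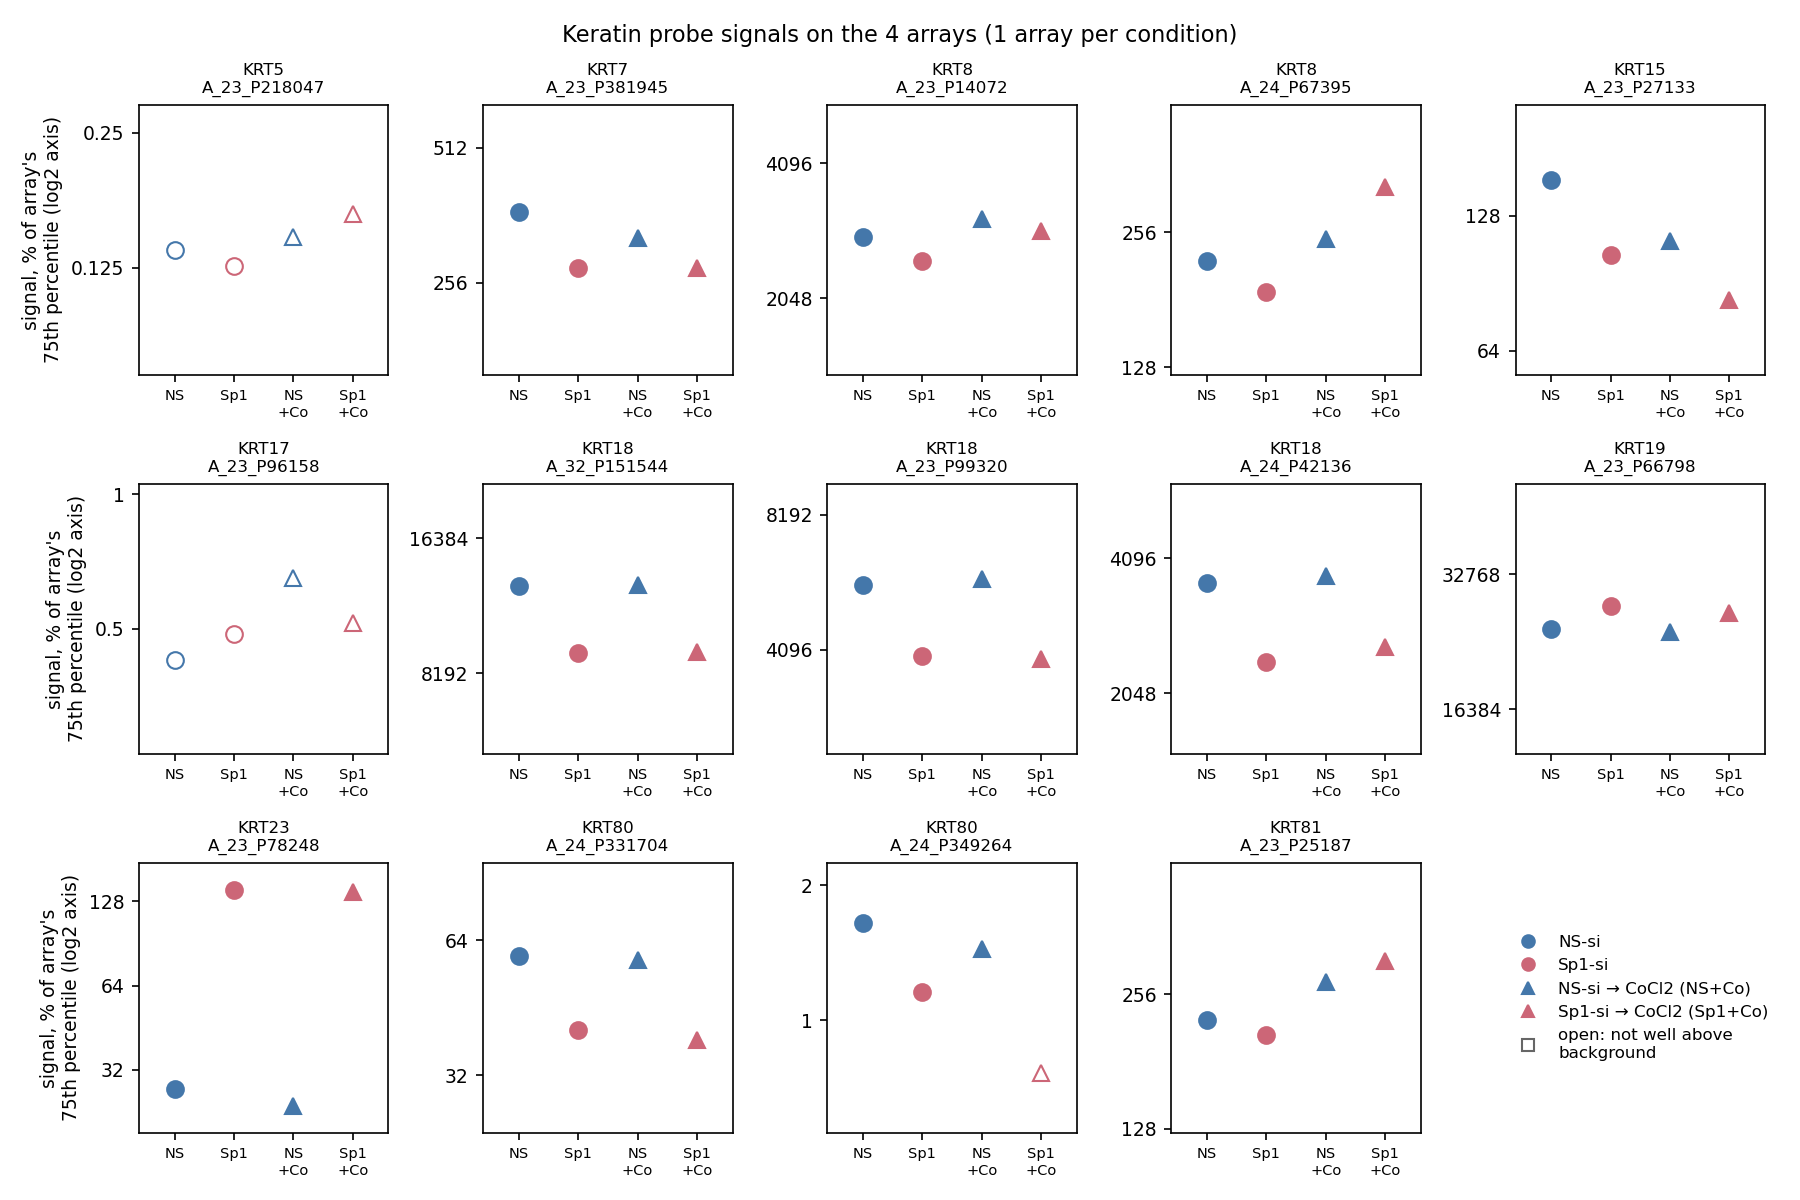
Processed signal of each of the 14 keratin probes on the 4 arrays, as a percentage of the array's 75th percentile on a log2 axis, with 1 point for each condition and open points where the probe was not well above background. KRT23 is high on both Sp1-si arrays and low on both NS-si arrays, and KRT5 and KRT17 have open points only.

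Silencing of Sp1 was compared first in cells without CoCl2. Of the 14 probes, 12 were well above background on both arrays, and 1 of them, the probe of KRT23, was at least 2-fold higher in Sp1-si cells and 0 were at least 2-fold lower. Among all 31437 probes measured on both arrays, 5.01% were at least 2-fold higher and 5.38% at least 2-fold lower. The keratin counts were also 1 and 0 at 1.5-fold, where 12.2% of all probes were higher and 13% lower. Of the 12 keratin probes, 10 had log2 ratios below 0 and 2 above. KRT18 gave 3 of these probes and KRT8 and KRT80 2 each, so the probes are not separate genes. The median over the 12 probes was -0.46, against -0.02 over all probes, and over the 8 genes, each by its brightest probe, it was -0.30 with a range of -0.56 to 2.37.

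With CoCl2, 11 keratin probes were measured on both arrays, and the count was again 1 higher, KRT23, and 0 lower. The shares over all 30514 probes were 6.08% higher and 9.16% lower. At 1.5-fold, KRT18 (A_23_P99320) and KRT80 (A_24_P331704) were past the threshold on the lower side, where 14.5% of all probes were higher and 20.8% lower. The log2 ratios of 7 keratin probes lay below 0 and of 4 above, with a median over probes of -0.22 against -0.06 over all probes. This split moved with the scaling of the arrays, since 6 of the 11 were below 0 under median scaling and 5 without scaling, whereas without CoCl2 it was 10 of 12 in both cases. With normexp background correction, 9 of the 12 were below 0 without CoCl2. Without scaling, the median of all probes moved by 0.40 with CoCl2 and by -0.05 without it.

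KRT23 is a type I keratin with low levels in most epithelia, known as a gene that histone deacetylase inhibitors induce in cancer cells. Its probe read 311, 1547, 232 and 1776 on the arrays of NS-si, Sp1-si, NS-si → CoCl2 and Sp1-si → CoCl2 cells. Both Sp1-si arrays were far above both NS-si arrays. The log2 ratio of Sp1-si to NS-si cells was 2.37 ± 0.04 without CoCl2, which is 5.16-fold, and 2.54 ± 0.04 with it, which is 5.81-fold. Without CoCl2, 116 of the 31437 probes had a higher ratio, and with CoCl2 93 of 30514 did. The log2 CoCl2 ratio of KRT23 was -0.20 ± 0.04 under control siRNA and -0.02 ± 0.04 under Sp1 siRNA, the latter within the spot error. Every alternative kept it past 2-fold, from 2.16 to 2.41 without CoCl2 and from 2.34 to 2.93 with it.

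The simple epithelial pair KRT8 and KRT18 was well above background on every array. The brightest probe of KRT18, the type I partner, read 146282, 100002, 126231 and 117716. The second read 65392, 43562, 57653 and 50245, and the third 41175, 26477, 36525 and 33421. After scaling, all 3 probes were lower on both Sp1-si arrays than on both NS-si arrays. Their log2 ratios were -0.49, -0.53 and -0.58 without CoCl2 and -0.50, -0.59 and -0.52 with it, each with a spot SD of 0.02 to 0.03. For the brightest probe this is 1.41-fold lower in both states, and it shrank to -0.10 with CoCl2 when the arrays were not scaled.

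KRT8, the type II partner, had probes that did not move alike. The brighter, A_23_P14072, read 32035, 27324, 30008 and 37153, and the dimmer, A_24_P67395, read 2518, 2068, 2416 and 4143. Without CoCl2 both were slightly lower in Sp1-si cells, with log2 ratios of -0.18 ± 0.02 and -0.23 ± 0.03. With CoCl2 the brighter was at -0.09 ± 0.02 and the dimmer at 0.38 ± 0.03. Their opposite signs rested on the scaling, since the 2 probes were at 0.02 and 0.49 under median scaling and at 0.31 and 0.78 without scaling. The gap of 0.47 between them with CoCl2 compares with a median gap of 0.35 over 4977 genes with several measured probes. Many processed pseudogenes resemble these genes (52 of KRT8 and 68 of KRT18 by name in the RefSeq table), and whether their transcripts reach these probes was not tested.

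The ratios of the partners were set side by side. KRT8 stood above KRT18 by 0.32 ± 0.03 in the log2 ratio of Sp1-si to NS-si cells without CoCl2 and by 0.41 ± 0.03 with it, each gene by its brightest probe. KRT7 stood below KRT19 by 0.59 ± 0.04 without CoCl2 and by 0.36 ± 0.04 with it. Probes of the same gene differed by a median of 0.19 without CoCl2 and 0.35 with it, over 4977 genes. Both gaps with CoCl2 were thus near what probes of a single gene show.

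KRT7, a type II keratin widely used as a marker of ovarian carcinoma, read 4215, 3040, 3145 and 3559. Its highest scaled level was in NS-si cells, and the Sp1-si and Sp1-si → CoCl2 levels were equal within the spot error. The log2 ratio of Sp1-si to NS-si cells was -0.42 ± 0.03 without CoCl2, 1.34-fold lower. With CoCl2 it was -0.22 ± 0.03, which turned to 0.18 without scaling.

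KRT19, the type I keratin without a tail domain, read 282498, 306907, 238239 and 345409. It was slightly higher in Sp1-si cells, with log2 ratios of 0.17 ± 0.02 without CoCl2 and 0.14 ± 0.02 with it. These sizes rested on the scaling, since they were 0.02 and 0.47 under quantile normalization and 0.12 and 0.54 without scaling. None of its spots was flagged as saturated.

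KRT15 is a type I keratin of basal cells and of the hair follicle bulge. Its probe read 1758, 1150, 1097 and 1068, highest in NS-si cells. The 4 scaled levels fell in the order NS-si, NS-si → CoCl2, Sp1-si and Sp1-si → CoCl2, and each step was over 2 spot SDs. The middle step rested on the scaling, since before it NS-si → CoCl2 cells (1097) read below Sp1-si cells (1150). Its log2 ratio of Sp1-si to NS-si cells was -0.56 ± 0.03 without CoCl2, 1.47-fold lower, and -0.44 ± 0.03 with it. Without scaling, the ratio with CoCl2 was -0.04.

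KRT80 is a type II keratin found near desmosomes in differentiating epithelia. Its brighter probe, A_24_P331704, read 674, 444, 566 and 494, lower on both Sp1-si arrays after scaling. The log2 ratios were -0.55 ± 0.04 without CoCl2 and -0.59 ± 0.04 with it, which are 1.46- and 1.51-fold lower, and the latter was -0.20 without scaling. The dimmer probe, A_24_P349264, read 18.8, 12.7, 14.1 and 9.81, and the last value was not well above background. Its ratio without CoCl2 was -0.51 ± 0.24, but 0.01 with normexp background correction. With CoCl2, NS-si cells were at least 1.81-fold higher, against the lowest signal well above background on the Sp1-si → CoCl2 array. This bound leaves out the spot error.

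KRT81 is a type II hair keratin that some carcinoma cells express. Its probe read 2560, 2284, 2664 and 3900, with Sp1-si → CoCl2 cells highest after scaling too, followed by NS-si → CoCl2, NS-si and Sp1-si cells, each step over 2 spot SDs. The log2 ratio of Sp1-si to NS-si cells was -0.11 ± 0.03 without CoCl2 and 0.15 ± 0.03 with it, the latter 0.55 without scaling. Its close relative KRT83 read 90.4, 82.6, 96.4 and 137, with log2 ratios of -0.08 ± 0.07 and 0.11 ± 0.09. The probe sequences were not used here, so how much of either signal comes from the other gene was not tested.

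KRT5 and KRT17 had no measured level. KRT5, the type II keratin of basal cells, read 1.56, 1.39, 1.43 and 2.12, and KRT17, the type I keratin of skin appendages and wounds, read 4.86, 5.36, 6.36 and 6.63. The lowest signals well above background on the same arrays were 7.39, 6.72, 6.93 and 10.2. No ratio is given for either gene.

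**Figure D2:**
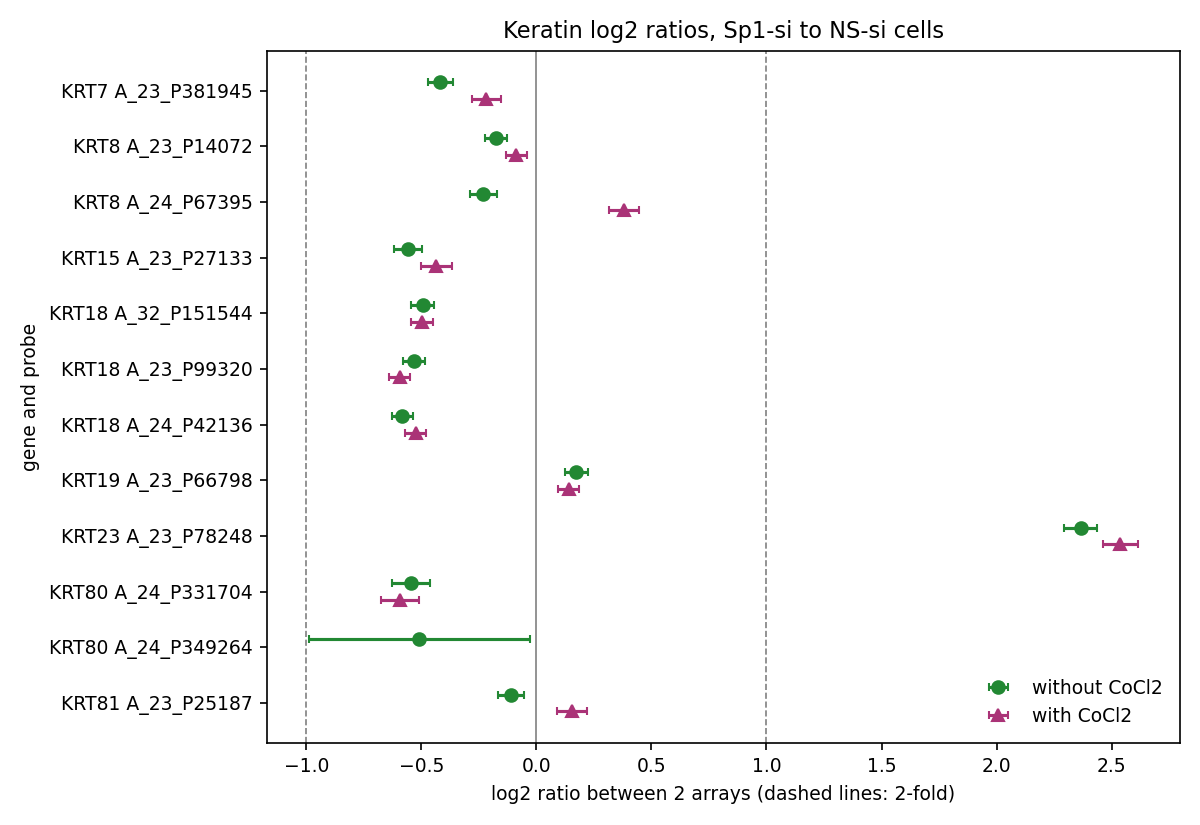
Log2 ratio of Sp1-si to NS-si cells for each measured keratin probe without CoCl2 (circles) and with CoCl2 (triangles), with bars of 2 spot SDs and dashed lines at 2-fold. KRT23 lies alone beyond 2-fold at 2.37 and 2.54, and the 3 probes of KRT18 lie between -0.49 and -0.59.

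The CoCl2 response was then compared in the 2 cell states. In NS-si cells, 0 of 12 measured keratin probes were at least 2-fold higher and 0 at least 2-fold lower, where 4.06% and 3.83% of all 31313 probes were, and 0 were past 1.5-fold, where 11.8% of all probes were higher and 10.5% lower. In Sp1-si cells, 0 of 11 were higher and 0 lower, where 3.47% and 5.74% of all 30685 probes were. The median over the 8 genes was -0.02 under control siRNA, with a range of -0.46 to 0.28, and -0.01 under Sp1 siRNA, with a range of -0.33 to 0.55. The number above 0 rested on the scaling, since it was 6 of 12 under control siRNA and 6 of 11 under Sp1 siRNA, but 1 of 12 and 10 of 11 without scaling, which moved the median of all probes by -0.23 and 0.22.

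KRT15 had the lowest CoCl2 ratio in both states among genes taken by their brightest probe. Under control siRNA it was 1.37-fold lower with CoCl2 than without, at -0.46 ± 0.04 in log2, and under Sp1 siRNA it was at -0.33 ± 0.03. KRT81 had the highest ratios by the same measure, 0.28 ± 0.03 under control siRNA and 0.55 ± 0.03 under Sp1 siRNA, the latter 1.46-fold. These sizes rested on the scaling, since without it KRT15 was at -0.68 and -0.11 and KRT81 at 0.06 and 0.77.

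The other keratins moved less by their brightest probe. KRT8 had log2 CoCl2 ratios of 0.13 ± 0.03 under control siRNA and 0.22 ± 0.03 under Sp1 siRNA, while its dimmer probe A_24_P67395 was at 0.17 ± 0.03 and 0.78 ± 0.03, the latter 1.71-fold, and just past 2-fold without scaling. That dimmer probe was the only one of the 11 past 1.5-fold in Sp1-si cells, where 10.4% of all probes were as much higher and 14.3% as much lower. KRT18 was at 0.01 in both states, with a spot SD of 0.03, but at -0.28 and -0.11 under quantile normalization.

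KRT19, KRT80 and KRT7 were close to 0 in most cases. KRT19 was at -0.02 ± 0.03 and -0.05 ± 0.03, and the brighter probe of KRT80 at -0.03 ± 0.04 and -0.07 ± 0.04. Under quantile normalization KRT19 was at -0.36 and 0.09. KRT7 was at -0.20 ± 0.03 under control siRNA and at 0.00 ± 0.03 under Sp1 siRNA. The dimmer probe of KRT80 was at -0.20 ± 0.22 in NS-si cells, within its spot error, and at 0.13 with normexp background correction. In Sp1-si cells it was at least 1.46-fold lower with CoCl2, a bound that leaves out the spot error.

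**Figure D3:**
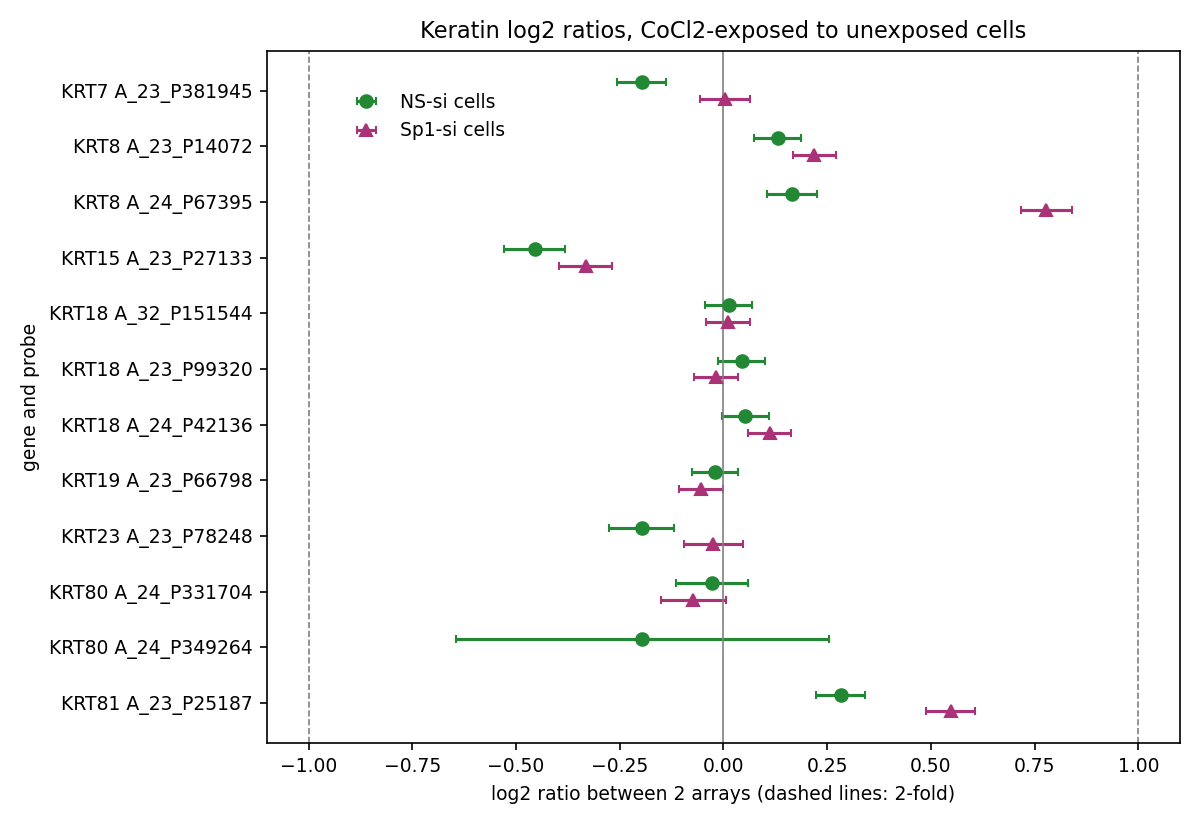
Log2 ratio of CoCl2-exposed to unexposed cells for each measured keratin probe in NS-si cells (circles) and Sp1-si cells (triangles), with bars of 2 spot SDs and dashed lines at 2-fold. All points lie inside 2-fold, with KRT15 lowest at -0.46 and -0.33 and the dimmer KRT8 probe highest at 0.78 in Sp1-si cells.

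The difference of the CoCl2 ratios, Sp1-si minus NS-si cells, measures how far the response depended on the cell state. Of the 11 keratin probes measured on all 4 arrays, 0 differed by at least 2-fold in either direction, against 1.05% higher and 4.87% lower of all 30234 probes. The dimmer KRT8 probe differed most, by 0.61 ± 0.04 in log2 and by 1.06 without scaling, while the brighter was at 0.09. It was the only probe past 1.5-fold, where 5.52% of all probes were higher and 12.6% lower. KRT81 followed at 0.27 ± 0.04, KRT7 at 0.20 ± 0.04, KRT23 at 0.17 ± 0.05 and KRT15 at 0.12 ± 0.04. For KRT18 the 3 probes lay between -0.06 and 0.06. The median over the 11 probes was 0.09, against -0.01 over all probes. The number of the 11 above 0 was 7, and it was 11 under median scaling, quantile normalization or no scaling. Those settings moved all probes upward too, by a median of 0.10, 0.05 and 0.45, so the count rested on the scaling.

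Among the 20926 probes with a symbol that were above background on all 4 arrays, those most like KRT23 by Euclidean distance of centred log2 levels over the 4 arrays belonged to FAM161A at 0.06, EML1 at 0.07 and C1orf226 at 0.12. KRT23 spanned 2.56 in log2, and 59 probes lay within a distance of 0.5 of it. For KRT15 the closest were ZFYVE16 at 0.03, CEP41 at 0.04 and COX18 at 0.04, and for KRT80 they were TIMELESS, GDF1 and OGFOD3, each at 0.03. These genes spanned less, 0.89 and 0.62, and 3466 and 4715 probes lay within 0.5, so that the nearest genes are not set apart from many others.

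The other keratins were taken from lists of 44 further type I and type II genes, of which 39 had a probe. Of 21 type I genes on the array, 13 were well above background on the 4 arrays and 6 on none, and of 18 type II genes, 7 and 10. Between Sp1-si and NS-si cells without CoCl2, 0 of 15 measured type I genes were at least 2-fold higher and 1 lower, and with CoCl2 0 of 13 were past 2-fold. Over all probes, 5.01% were higher and 5.38% lower without CoCl2, and 6.08% and 9.16% with it. None of the 7 measured type II genes passed 2-fold in any comparison, where 1.05% to 9.16% of all probes did in a given direction. At these shares, lists this small would hold few such genes or none. KRT10, a type I keratin of suprabasal epidermis, read 19243, 17517, 15136 and 12796. Its log2 values for Sp1-si against NS-si were -0.08 ± 0.03 without CoCl2 and -0.64 ± 0.02 with it.

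Only dim keratins of these lists passed 2-fold by their brightest probe. KRT24 read 28.6, 11.5, 18.7 and 9.19, with a log2 ratio of Sp1-si to NS-si cells of -1.26 ± 0.21 without CoCl2. KRT25, a keratin of the hair root sheath, read 54.2, 38.8, 12.4 and 16.4, with CoCl2 ratios of -1.90 ± 0.17 under control siRNA and -1.47 ± 0.15 under Sp1 siRNA. With normexp background correction, these ratios were -0.14 for KRT24 and -0.31 and -0.50 for KRT25. KRT14, the basal partner of KRT5, had probes at -0.51 ± 0.05 and -1.24 ± 0.13 in the log2 ratio of Sp1-si to NS-si cells with CoCl2. The latter, from its dimmer probe, was -0.71 with normexp.

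Genes of the desmosome and hemidesmosome, which anchor keratin filaments, were counted in the same way. Of 19 listed genes, 14 were well above background on the 4 arrays, and between Sp1-si and NS-si cells 1 was at least 2-fold higher and 2 lower without CoCl2, and 1 higher and 3 lower with it. Over all probes the shares were 5.01% and 5.38% without CoCl2 and 6.08% and 9.16% with it. Their medians were -0.03 and -0.09. The desmosomal cadherins DSG1, DSG3, DSC1 and DSC3 of stratified epithelia were above background on 0 arrays.

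DSP, desmoplakin, the plaque protein that binds keratin filaments to the desmosome, read 14072, 43509, 11238 and 58722. Both Sp1-si arrays were above both NS-si arrays, with log2 ratios of 1.68 ± 0.02 without CoCl2 and 1.99 ± 0.02 with it, the latter 3.97-fold. DSG2, the desmosomal cadherin of simple epithelia, went the other way at 1164, 488, 1441 and 789, with ratios of -1.20 ± 0.03 and -1.27 ± 0.04, the latter -0.87 without scaling.

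The hemidesmosome genes divided. COL17A1, the transmembrane collagen of hemidesmosomes, read 447, 171, 463 and 184, with ratios of -1.33 ± 0.06 and -1.73 ± 0.05. Its dimmer probe gave -1.48 and -1.42, or -0.49 and -0.79 with normexp. ITGA6, the integrin alpha subunit, read 3403, 1713, 3215 and 2071, with ratios of -0.94 ± 0.03 and -1.03 ± 0.03, the latter -0.63 without scaling. Its partner subunit ITGB4 read 3030, 4700, 2977 and 5502, with ratios of 0.69 ± 0.03 and 0.49 ± 0.03, so the partners lay on opposite sides of 0. In the CoCl2 comparisons the one gene past 2-fold by its brightest probe was PKP2, a plaque protein, at 473, 503, 281 and 270, with a ratio of -1.12 in Sp1-si cells, and -0.89 without scaling.

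Among the 15 other intermediate filament genes, VIM stood out. It encodes vimentin and read 2104, 8893, 2392 and 15270, with log2 values for Sp1-si against NS-si of 2.13 ± 0.03 without CoCl2 and 2.28 ± 0.03 with it, which are 4.39- and 4.85-fold. A second probe gave 2.04 and 2.64. Of the 12 genes measured without CoCl2, 1 was at least 2-fold higher and 1 lower, and of 11 with CoCl2, 2 were higher and 2 lower, beside the same shares over all probes. SYNM, which encodes synemin, a partner of vimentin and desmin in filaments, read 307, 458, 173 and 613, with a log2 ratio of Sp1-si → CoCl2 to NS-si → CoCl2 cells of 1.43 ± 0.05.

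The lamins of the nuclear envelope did not move as a group. LMNB1 read 227, 103, 177 and 109, with ratios of -1.08 ± 0.07 and -1.10 ± 0.07, and -0.70 with CoCl2 when the arrays were not scaled. LMNA was at -0.57 ± 0.02 and -0.78 ± 0.02, while LMNB2 was at 0.49 ± 0.03 and 0.33 ± 0.03. NES, nestin, read 115, 64.8, 148 and 95.7 and was at -1.02 ± 0.09 with CoCl2, or -0.63 without scaling. Of the 5 epithelial markers, 2 were at least 2-fold lower in Sp1-si cells, where 5.38% of all probes were without CoCl2 and 9.16% with it. CDH1, E-cadherin, read 39407, 12937, 42530 and 16849, with ratios of -1.55 ± 0.05 and -1.73 ± 0.04, and ESRP1, an epithelial splicing factor, was at -1.37 and -1.45. EPCAM was at 0.18 and -0.01, CLDN4 at -0.23 and -0.11 and MUC1 at 0.16 and 0.28.

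**Figure D4:**
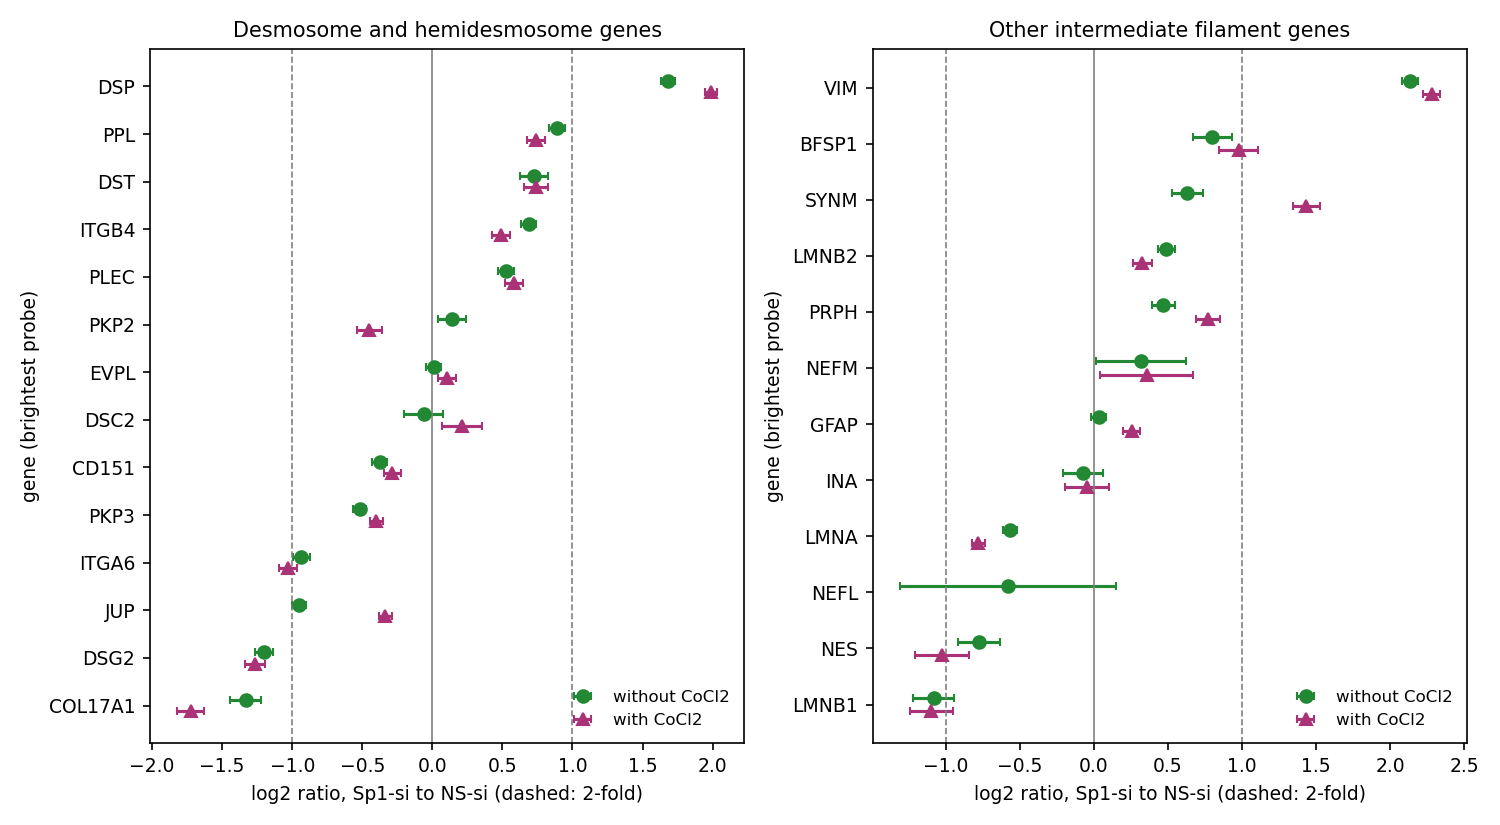
Log2 ratio of Sp1-si to NS-si cells without CoCl2 (circles) and with CoCl2 (triangles) for desmosome and hemidesmosome genes (left) and other intermediate filament genes (right), each by its brightest probe, with bars of 2 spot SDs and dashed lines at 2-fold. DSP (1.68 and 1.99) and VIM (2.13 and 2.28) are highest, and COL17A1 (-1.33 and -1.73) and LMNB1 (-1.08 and -1.10) lowest.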

How the data were processed

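The authors deposited spot intensities from Agilent Feature Extraction 10.5.1.1, background-subtracted and detrended per the file headers, for a human array designed on hg18. These signals are not normalized between arrays. The authors' value table is the same signal times a constant that differs between arrays, which rescales them.

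Here log2 processed signals were taken minus the array's 75th percentile, without outlier spots. A probe counted as well above background if at least 50% of its spots were flagged so. A ratio needed both arrays above background, and otherwise a bound was given. Called means at least 2-fold. The spot SD is that of the log2 ratio over the spots of a 10-spot probe. For other probes it is the median over the 50 10-spot probes nearest in signal, of 264. RefSeq accessions of the RefSeq table matched 28463 of 29877 spots with one and named 26222 probes. No coordinates are given, since the builds differ.

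All 10 keratins were named, and of each list up to 5 genes past 2-fold in a direction, plus markers, of which 1 is not reported here. KRT10, KRT83, ITGB4, LMNA and LMNB2 were named after their values were seen. The members and lists were chosen with earlier results of these data known. Per the array, 33081 to 34542 of 43376 spots were well above background and 0 were saturated. The number of arrays limits the precision.

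Alternatives were other scalings (median, none, quantile, percentile over measured probes), the authors' table, normexp with an offset of 50, outliers kept, other filters, a floor, and 1.5- and 3-fold. The files hold no mean signal, so normexp used medians. Counting was tested on simulated data. Tools were Python 3.11.15, numpy 2.4.6, pandas 2.3.3, matplotlib 3.10.9, R 4.3.3 and limma 3.58.1.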

Additional observations from a re-analysis of the deposited data

How the results depend on the processing

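Of 60 values of the keratin counts under the alternatives, 55 stayed within 1.5 times the count reported and 5 did not. At 1.5-fold in place of 2-fold, the number of probes past the threshold was 1 in place of 0 for the CoCl2 ratio in Sp1-si cells, 3 in place of 1 for Sp1-si to NS-si cells with CoCl2, and 1 in place of 0 for the difference of the CoCl2 ratios. Without scaling, it was 1 in place of 0 for the CoCl2 ratio in Sp1-si cells and for the difference. The added probe in each case was A_24_P67395 of KRT8, and with CoCl2 at 1.5-fold it was probes of KRT18 and KRT80.

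For single genes, 297 of 440 values moved by less than the spot SD and 143 by more. The sign changed in 35, of which 10 were without scaling, and in 0 of the 132 values of ratios of at least 0.3 in size. These totals include values that could not move. The other background filters and the floor leave a gene unchanged when its brightest probe is well above background on all 4 arrays, as these were. Averaging over probes leaves genes with 1 probe unchanged. The shares that held are therefore no measure of robustness by themselves. No paired analysis was possible because each condition has 1 array. Signals near background limit KRT5, KRT17 and the dimmer KRT80 probe.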

Other observations

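Epithelial transcription factors included genes with larger CoCl2 ratios than any measured keratin. Of 13 measured genes of a list of 14, 3 were at least 2-fold higher with CoCl2 in NS-si cells and 1 lower, and 5 were higher in Sp1-si cells. Over all probes 4.06% were higher and 3.83% lower in the first comparison and 3.47% higher in the second. OVOL1, a zinc finger factor of epithelial differentiation, read 1822, 669, 9779 and 7461, with log2 CoCl2 ratios of 2.65 under control siRNA and 3.26 under Sp1 siRNA. CEBPB read 3699, 2091, 8992 and 10551, with ratios of 1.51 and 2.11, but its second probe gave 1.08 and 0.64. KLF4 read 178, 136, 406 and 413, with ratios of 1.41 and 1.37. EHF, an ETS factor of epithelia, read 191, 164, 256 and 123, and the log2 difference of its CoCl2 ratios, Sp1-si minus NS-si, was -1.30, or -0.85 without scaling. CEBPA cannot be given a direction, since its brightest probe had a log2 ratio of Sp1-si to NS-si cells with CoCl2 of -1.36 and its other probes 1.49 and 1.52.

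Of 13 cornified envelope genes on the array, none of 9 measured in the other comparisons was past 2-fold, and 2 of 10 were higher in Sp1-si → CoCl2 than in NS-si → CoCl2 cells, where 6.08% of all probes were. Both were dim. FLG, filaggrin, was at 1.20 and S100A9 at 1.21 in log2, and with normexp background correction they were at -0.02 and 0.02.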
